A study of Mus musculus with 4 samples.

Results

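The 9 genes described here encode components of fibroblast growth factor (FGF) signaling: the ligands Fgf2, Fgf7 and Fgf18, the receptors Fgfr1, Fgfr2 and Fgfr3, and the feedback genes Dusp6, Spry1 and Spry2. They were taken by symbol from the 32285 genes of the count matrices, with earlier results of these data known, and each of the 9 had at least 1 count in each of the 4 libraries. The libraries came from male C57BL/6J mice that were 20 weeks old, sampled at week 2 of a subcutaneous placebo pellet (control) or of a prednisolone pellet releasing 6.25 mg/kg/d (GC). From each treatment there was 1 library of fracture callus and 1 of trabecular bone. The labels name a pellet for all 4 libraries, whereas the methods of the study describe daily injection for its fracture model, and the number of mice behind a library is not given in the sources used here. No genetic change is named for any group, so all groups shared the C57BL/6J background, the sex and the age.

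FGF ligands bind receptor tyrosine kinases on the cell surface together with heparan sulfate, and the activated receptor signals through adaptors such as Frs2 to Ras and a cascade of MAP kinases. Activity of the cascade turns on its own inhibitors, among them the Sprouty proteins Spry1 and Spry2, which act high in the cascade, and Dusp6, a phosphatase that acts on MAP kinases. In the growth plate, Fgfr3 is known for restraining chondrocyte proliferation, Fgfr1 is known from hypertrophic chondrocytes and the osteoblast lineage, and Fgfr2 is known from the perichondrium and osteoprogenitors.

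The matrices hold counts of UMIs, the molecular tags by which each captured RNA molecule is counted once. After filtering, 6705 cells of control callus (median 4235 UMIs), 6890 of GC callus (median 3353), 3803 of control trabecular bone (median 6337) and 4601 of GC trabecular bone (median 5625) remained. Any 2 libraries shared 6 to 10 cell barcodes. Levels are in CPM, the UMIs of a gene scaled to a total of 1000000 UMIs over all genes, summed over the cells of a class in 1 library, and brackets hold 95% intervals that cover counting error only. With 1 library per group there were no replicates, so no comparison between groups has a test or an error between animals. Because the counts come from 1 end of a transcript and were not scaled by length, levels were compared between classes for 1 gene and never between genes, and the splice forms of the receptors were not told apart.

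The callus held the skeletal cells. Chondrocytes (1780 cells, with Col2a1 at 66217 CPM in control and 55808 CPM in GC), hypertrophic chondrocytes (2318 cells, with Col10a1 at 37525 and 27933 CPM), osteoblasts or osteocytes (183 cells, with Bglap at 1591 and 426 CPM) and stromal cells or skeletal progenitors (412 cells, with Prrx1 at 248 and 184 CPM) were named from their markers. Cluster 10 (463 cells, 130 of them from control) carried Col1a1, Ibsp and Col2a1 together and was left unnamed. A further 8 clusters mixed the markers of several classes and held 14 cells of control callus and 1112 of GC callus, which is 16.1% of that library, and these were kept out of the classes. Trabecular bone held 47 stromal cells, 13 of them from control, and no cluster there was named chondrocyte or osteoblast. In the empty droplets of control callus Fgfr1 stood at 280 CPM and Fgfr3 at 176 CPM, so free RNA of these genes was present. The GC callus matrix lists only called barcodes, so callus B cells, in which Fgfr1 was at 23.0 CPM in control and 17.6 CPM in GC, served as the background class in both libraries.

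Among the ligands, Fgf2, a broadly acting factor stored in the extracellular matrix, was found across the skeletal classes. Pooled over both callus libraries and leaving out the mixed clusters, it was highest in cluster 10 at 78.6 CPM [72.5, 85.0] and in chondrocytes at 65.5 CPM [63.3, 67.8]. That order held in GC, at 97.6 CPM in cluster 10 and 83.1 CPM in chondrocytes. In control, cluster 10 was the lower of the 2, at 47.6 CPM [40.2, 56.1] against 59.9 CPM in chondrocytes. In the pooled values, hypertrophic chondrocytes at 51.5 CPM and stromal cells at 51.4 CPM could not be separated by their intervals, and osteoblasts or osteocytes were lower at 27.7 CPM. By library, hypertrophic chondrocytes and stromal cells stood at 42.4 and 53.6 CPM in control and at 62.0 and 48.7 CPM in GC. Outside the skeletal classes, Fgf2 was at most 7.58 CPM (2 UMIs, in plasmacytoid dendritic cells) in any callus class of at least 50 cells in a library, which is near its level in callus B cells (2.23 CPM in control and 4.4 CPM in GC). By count, chondrocytes supplied 45.7% and hypertrophic chondrocytes 30.4% of the Fgf2 UMIs in callus cells.

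Fgf7, also known as keratinocyte growth factor and made by mesenchymal cells, was highest in stromal cells at 60.4 CPM [54.5, 66.7]. It was lower in chondrocytes at 46.5 CPM [44.6, 48.4], and hypertrophic chondrocytes at 39.7 CPM and cluster 10 at 38.7 CPM overlapped in their intervals. Osteoblasts or osteocytes were at 10.1 CPM. These values pool both libraries, and the order was not the same in each. In control, stromal cells stood at 69.7 CPM [61.3, 79.0], chondrocytes at 49.4 CPM and hypertrophic chondrocytes at 33.9 CPM. In GC, stromal cells stood at 49.1 CPM [41.4, 57.8], hypertrophic chondrocytes at 46.2 CPM and chondrocytes at 37.3 CPM. Within the chondrocytes the gene was uneven, at 72.4 CPM in control cells of cluster 7, which was led by Ucma and C1qtnf3, and at 24.1 CPM in those of cluster 6, which was led by Col2a1 and Col11a1.

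Fgf18, a ligand known from the perichondrium and periosteum, was scarce, with 182 UMIs in the cells of control callus and 85 in those of GC callus. Its pooled callus level was 6.52 CPM [4.70, 8.81] in stromal cells, and the intervals of osteoblasts or osteocytes (4.68 CPM, 12 UMIs) and endothelial cells (4.67 CPM, 4 UMIs) reached into that range. Chondrocytes stood lower, at 2.84 CPM [2.39, 3.35]. By library, stromal cells were at 9.07 CPM [6.20, 12.8] in control and 3.43 CPM [1.65, 6.31] in GC, the latter on 10 UMIs. Chondrocytes were at 3.08 CPM in control and 2.08 CPM in GC, so in GC they lay within the stromal interval. In the 13 stromal cells of control trabecular bone 7 UMIs gave 58.8 CPM, and in the 34 of GC trabecular bone 6 UMIs gave 24.3 CPM.

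The receptors divided the skeletal classes among them. Fgfr3 was highest in chondrocytes at 314 CPM [309, 319] and lower in cluster 10 at 251 CPM [241, 263], in stromal cells at 145 CPM [136, 155], and in osteoblasts or osteocytes (81.1 CPM) and hypertrophic chondrocytes (69.6 CPM), whose intervals touched. Chondrocytes carried 69.1% of all Fgfr3 UMIs in callus cells. Fgfr1 had the other order. It was highest in hypertrophic chondrocytes at 652 CPM [644, 660], next in osteoblasts or osteocytes at 498 CPM [471, 526], then in cluster 10 (367 CPM) and stromal cells (351 CPM), which overlapped, and at 156 CPM [152, 159] in chondrocytes. Fgfr2 was highest in stromal cells at 103 CPM [94.9, 111], below that in osteoblasts or osteocytes at 44.1 CPM [36.3, 53.0], and at 22.5 CPM in chondrocytes and 9.06 CPM in hypertrophic chondrocytes.

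**Figure D1:**
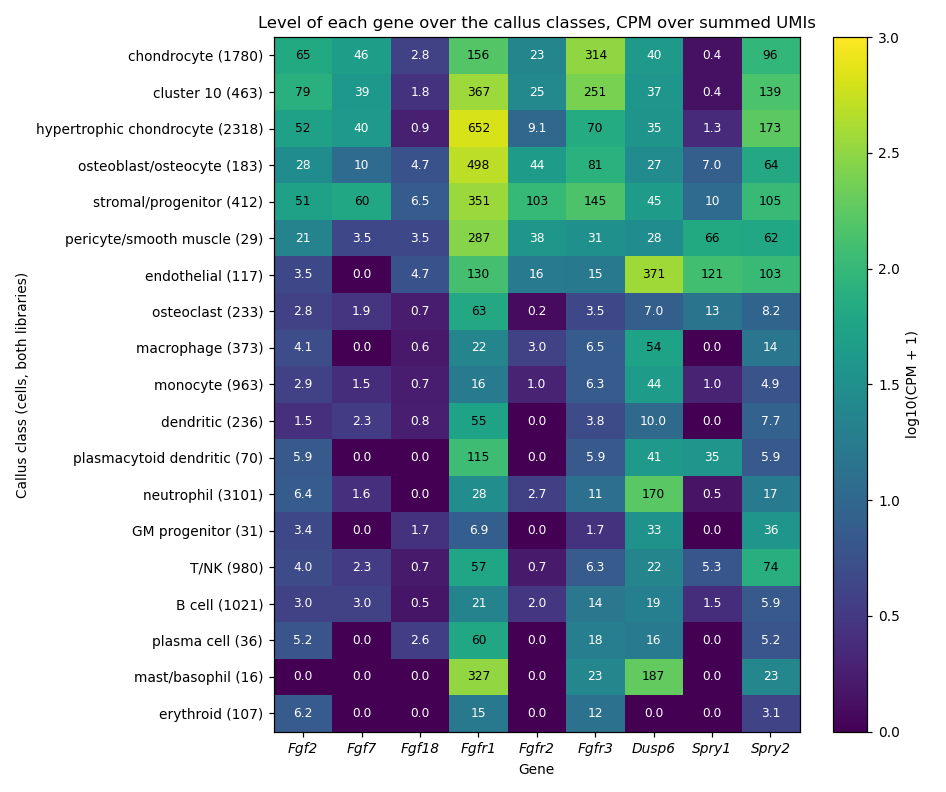
Level of each of the 9 genes (columns) in the callus classes (rows, with the number of cells over both libraries), as CPM over the summed UMIs of both callus libraries, with color on a log10(CPM + 1) scale. Fgfr3 peaked in chondrocytes (314 CPM), Fgfr1 in hypertrophic chondrocytes (652 CPM), Fgfr2 in stromal cells (103 CPM), Spry1 in endothelial cells (121 CPM) and Dusp6 in endothelial cells (371 CPM).

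The receptors also differed between clusters of the cartilage cells, in each library. In control callus Fgfr3 was at 350 CPM in cluster 7, 273 CPM in cluster 6, 87.2 CPM in cluster 1 (hypertrophic, led by Col10a1 and Ibsp) and 49.3 CPM in cluster 3 (hypertrophic, led by Mmp13 and Rbp4). In GC callus the values in that order were 426, 285, 79.2 and 35.4 CPM. Fgfr1 in control callus was at 107 CPM in cluster 7, 221 CPM in cluster 6, 607 CPM in cluster 1 and 808 CPM in cluster 3. The GC values were 96.6, 181, 563 and 750 CPM, so both libraries gave opposite orders for the 2 receptors over these 4 clusters. Cycling cluster 21, also of chondrocytes, lay outside these orders, with Fgfr3 at 257 CPM and Fgfr1 at 117 CPM in control and at 196 and 129 CPM in GC, each below its level in cluster 6. The clusters were made without the FGF genes, yet the genes that define them came from the same cells, and the orders are a description. Fgfr2 split the chondrocytes as well, at 35.3 CPM in control cells of cluster 7 and 8.35 CPM in those of cluster 6.

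**Figure D2:**
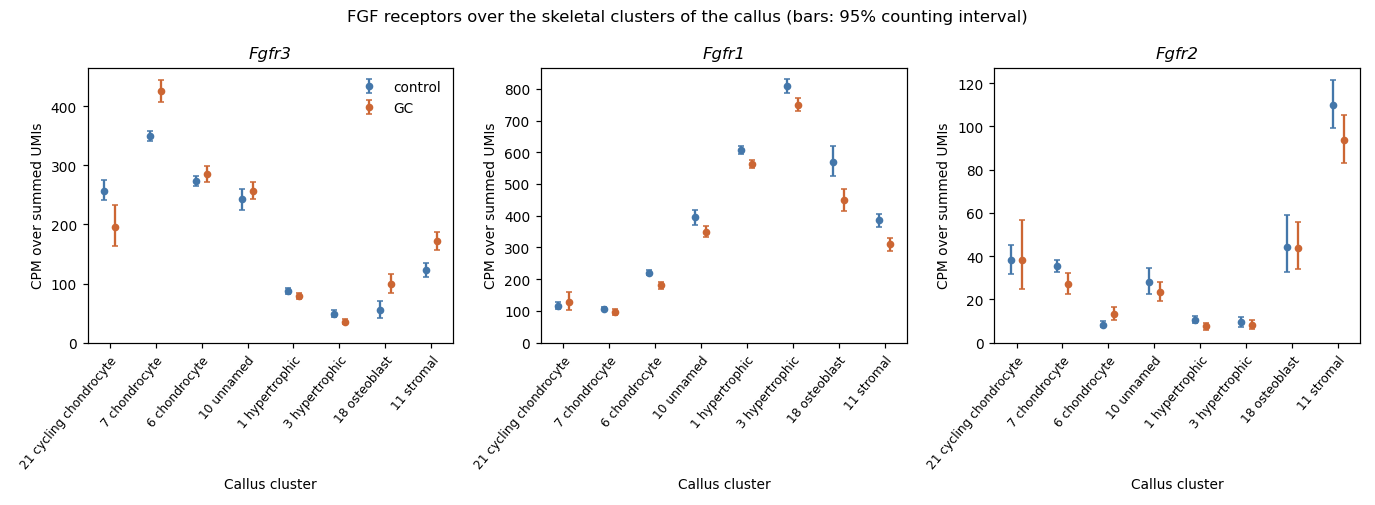
CPM of Fgfr3, Fgfr1 and Fgfr2 (y axes, linear and each with its own range) in the 8 skeletal clusters of the callus (x axis), for control (blue) and GC (orange), with points for the level and bars for the 95% counting interval. Fgfr3 runs from 350 CPM in control cells of cluster 7 to 49.3 CPM in those of cluster 3, Fgfr1 from 107 to 808 CPM, and Fgfr2 is highest in stromal cluster 11.

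Shares were counted in cells thinned to 1000 UMIs, so that depth is equal. Cells with fewer UMIs were left out of thinned values, here and below. By that count, 49.2% [46.1, 52.3] of the hypertrophic chondrocytes of control callus and 45.1% [42.1, 48.0] of those of GC callus had an Fgfr1 UMI. The shares without thinning were 92.3% and 88.8%, at median depths of 19765 and 15790 UMIs. In callus B cells the thinned shares were 2.34% and 2.57%, at medians of 1928 and 1684 UMIs. For Fgfr3 the thinned shares of chondrocytes were 26.6% [24.2, 29.1] in control and 26.7% [22.6, 31.0] in GC, against 1.51% and 0.86% in B cells. These shares lay above the B cell background in both libraries.

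Fgfr1 was not limited to the skeleton. In the callus it stood at 130 CPM [107, 156] in endothelial cells and 287 CPM in 29 pericytes or smooth muscle cells. The 16 mast cells or basophils carried 14 Fgfr1 UMIs (327 CPM [179, 549]), all in control. Plasmacytoid dendritic cells had Fgfr1 in both tissues, at 121 CPM in control callus and 66.6 CPM in control trabecular bone.

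Of the feedback genes, Dusp6 and Spry1 were highest in endothelial cells and Spry2 in hypertrophic chondrocytes, among the named classes. Dusp6 was highest in callus endothelial cells at 371 CPM [331, 414], and neutrophils followed at 170 CPM [158, 183], with 16 mast cells or basophils (8 UMIs) between them. The skeletal classes lay between 44.9 CPM in stromal cells and 27.3 CPM in osteoblasts or osteocytes, against 23.0 CPM in B cells of control callus. Thinned, 14.9% [13.1, 16.9] of callus neutrophils of control and 10.9% [9.03, 12.9] of those of GC had a Dusp6 UMI. Whether callus B cells are a fit background class for Dusp6 was not tested. B cells of control trabecular bone, where skeletal cells were rare, stood at 71.1 CPM. Those were mostly in trabecular clusters 18 and 22 (134 and 77 of 252 cells), with Ebf1 and Vpreb3 among the leading genes. Callus B cells were mostly in callus cluster 5 (582 control and 380 GC cells), with Cd74 and Ighd among the leading genes.

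Spry1 led in the vessel-associated classes. It stood at 121 CPM [99.1, 147] in callus endothelial cells and 65.8 CPM [39.6, 103] in pericytes or smooth muscle cells, and at 0.36 CPM in chondrocytes and 1.28 CPM in hypertrophic chondrocytes. Spry2 was found more widely. Pooled over both callus libraries, it was at 173 CPM [169, 177] in hypertrophic chondrocytes, 139 CPM [131, 148] in cluster 10, 105 CPM in stromal cells, 103 CPM in endothelial cells and 96.1 CPM in chondrocytes, the last 3 with overlapping intervals. The place of cluster 10 was not the same in each library. In control it stood at 86.0 CPM [75.8, 97.1], with stromal cells at 98.9 CPM, endothelial cells at 102 CPM and chondrocytes at 89.0 CPM. In GC it stood at 172 CPM, with these classes at 113, 103 and 118 CPM. T or NK cells also carried Spry2, at 74.4 CPM in the callus, against 5.91 CPM in B cells.

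GC was then compared with control within each class that had at least 15 cells in both libraries, for genes with at least 50 UMIs over both. Log2 ratios add 5 CPM to each side, and the brackets beside them are intervals of the ratio without that addition. In the callus 54 of 144 pairs of a gene and a class met the minimum, over 12 classes and all 9 genes. Of these, 1 was higher and 2 were lower in GC by at least 2-fold. Over all genes in the same 12 classes 1.06% of pairs were higher and 1.23% lower by that amount, so 51 of the 54 pairs stayed within 2-fold, as nearly all pairs of any gene did. In trabecular bone 7 of 54 pairs met the minimum, all of Dusp6 or Spry2, and 0 were higher and 1 was lower, where 0.766% and 0.655% of all pairs were.

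In hypertrophic chondrocytes Spry2, Dusp6 and Fgf2 were higher in GC than in control. The receptors differed less as reported, but the size of the Fgfr3 difference depended on the processing. Spry2 stood at 124 CPM in control and 229 CPM in GC, a log2 ratio of 0.86 [0.82, 0.96]. Dusp6 stood at 25.4 CPM in control and 45.0 CPM in GC, a log2 ratio of 0.72 [0.67, 0.98]. That ratio was 2.42 when the B cell level of Dusp6 in each library (23.0 CPM in control and 10.3 CPM in GC) was taken off. As said above, it was not tested whether B cells are a fit background class for Dusp6. Fgf2 stood at 42.4 and 62.0 CPM (0.50 [0.42, 0.67]). In each of the 3 genes GC was the higher library, with a difference larger than counting error and smaller than 2-fold.

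Fgf7 was also higher in GC hypertrophic chondrocytes (33.9 CPM in control, 46.2 CPM in GC, log2 ratio 0.40 [0.31, 0.59]), but its direction turned, to -1.0, when cells of at least 1000 genes were kept. Fgfr1 differed by -0.08 [-0.11, -0.04] between 669 CPM in control and 633 CPM in GC, and Fgfr3 by -0.25 [-0.37, -0.16] between 75.6 and 62.8 CPM. Over 16 alternative settings the Fgfr3 ratio stayed below 0 and ran from -1.02 to -0.0012. Of 8 genes that met the minimum 0 were past 2-fold, where 0.21% of the 11881 genes tested in this class were higher and 0.236% lower. The median log2 ratio of the 8 was 0.24, and that of all genes tested was 0.00.

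The share of cells gave the same order for the feedback genes. Thinned to 1000 UMIs, 12.0% [10.1, 14.2] of control and 19.8% [17.5, 22.2] of GC hypertrophic chondrocytes had a Spry2 UMI, and 2.42% [1.58, 3.56] and 5.29% [4.06, 6.76] had a Dusp6 UMI. The corresponding shares of B cells were 0.50% and 0.57% for Spry2 and 2.01% and 1.14% for Dusp6. The Dusp6 share of control hypertrophic chondrocytes was not separated from the B cell level. It was not tested whether B cells are a fit background class for this gene, so that level cannot tell whether the share is background. The B cell level of this gene was itself lower in GC, on 7 UMIs against 31 in control. Unthinned, the Spry2 shares were 71.1% and 74.2%.

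Other values of the hypertrophic chondrocytes are set beside these ratios, whether or not they differed between the libraries. The summed level of the 8 hypertrophic markers was 42017 CPM in control and 30575 CPM in GC, and that of the 7 monocyte markers, all detected in both, was 5829 and 7207 CPM. The monocyte list holds Vcan, which was also among the highest genes of stromal cluster 11 against the skeletal clusters. Its sum is thus not specific to monocytes. The 12 neutrophil markers summed to 84.5 and 45.1 CPM, and the 10 endothelial markers to 8.51 and 8.97 CPM. Mitochondrial UMIs were 1.27% and 1.20%. The part of these values in the ratios was not tested.

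Cluster 10, between the cartilage and osteoblast classes by its genes, gave the largest ratio of Fgf2. The gene stood at 47.6 CPM in 130 control cells and 97.6 CPM in 333 GC cells, a log2 ratio of 0.96 [0.76, 1.32]. Spry2 stood at 86.0 and 172 CPM (0.96 [0.80, 1.21]). Both were about 2-fold higher in GC without reaching 2-fold on the scale with 5 CPM added. Dusp6 had 29.0 and 41.6 CPM (0.46 [0.15, 0.90]), and the 3 receptors lay between -0.22 and 0.08. Of 7 genes tested in the cluster 0 were past 2-fold, against 0.734% higher and 0.614% lower among all genes tested, and their median was 0.37 against 0.05 for all genes. The median depth of its cells was 20638 UMIs in control and 12905 in GC. The monocyte markers, whose list holds Vcan and is not specific to monocytes, summed to 4802 and 10645 CPM. Within the cluster, Bglap stood at 268 CPM in control and 23.6 CPM in GC, Col1a1 at 27456 and 19134 CPM, and Col2a1 at 42126 and 42430 CPM. Whether depth or any of these markers bears on the ratios was not tested.

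In chondrocytes the differences were smaller. Fgf2 stood at 59.9 CPM in control and 83.1 CPM in GC (log2 ratio 0.44 [0.36, 0.58]), and Spry2 at 89.0 and 118 CPM (0.39 [0.32, 0.50]). Dusp6 was at 39.6 and 40.2 CPM (0.02 [-0.13, 0.17]) and Fgf7 at 49.4 and 37.3 CPM (-0.37 [-0.56, -0.26], and 0.08 when cells were thinned to 1000 UMIs). Fgf2 and Spry2 were thus higher in GC, Fgf7 lower, and Dusp6 was not separated. Of 8 genes tested in chondrocytes 0 were past 2-fold, against 0.188% higher and 0.62% lower among all genes tested in the class. The chondrocyte clusters did not hold the same share in the libraries, with 639 control and 174 GC cells in cluster 7 and 569 and 250 in cluster 6.

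Because cluster shares differed, the ratios were also taken within single clusters. Spry2 was higher in GC in 7 of the 8 skeletal clusters, with an interval above 0 in 6, and its log2 ratio ran from -0.13 in cycling cluster 21 to 0.96 in cluster 10. Fgf2 was higher in 7 of 8, with an interval above 0 in 5, and the exception was stromal cluster 11. Fgfr1 was lower in GC in 7 of 8, with an interval below 0 in 6, and its lowest log2 ratio was -0.35. The clusters of 1 library share their cells' source and are no replicates.

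Dusp6 divided the clusters. It was higher in GC in clusters 6, 10, 1 and 3, where the log2 ratios were 0.60, 0.46, 0.77 and 0.59, and lower in cluster 7 (-0.27 [-0.53, -0.09]) and in stromal cluster 11 (-0.34 [-0.74, -0.03]). Its ratio of 0.02 in chondrocytes as a class pooled clusters 6 and 7, which had opposite directions, with cluster 21. That ratio also holds the unequal shares of the clusters, whose control levels differed (22.4 CPM in cluster 6 and 54.3 CPM in cluster 7). Fgf7 divided the skeletal clusters too, at 0.58 [0.48, 0.82] in hypertrophic cluster 1, -0.40 [-0.64, -0.24] in cluster 7 and -1.61 in cycling cluster 21. In cluster 21, 218 UMIs in 111 control cells (62.0 CPM) faced 11 UMIs in 37 GC cells (16.9 CPM). Whether any of these clusters differed from another in its ratio was not tested.

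**Figure D3:**
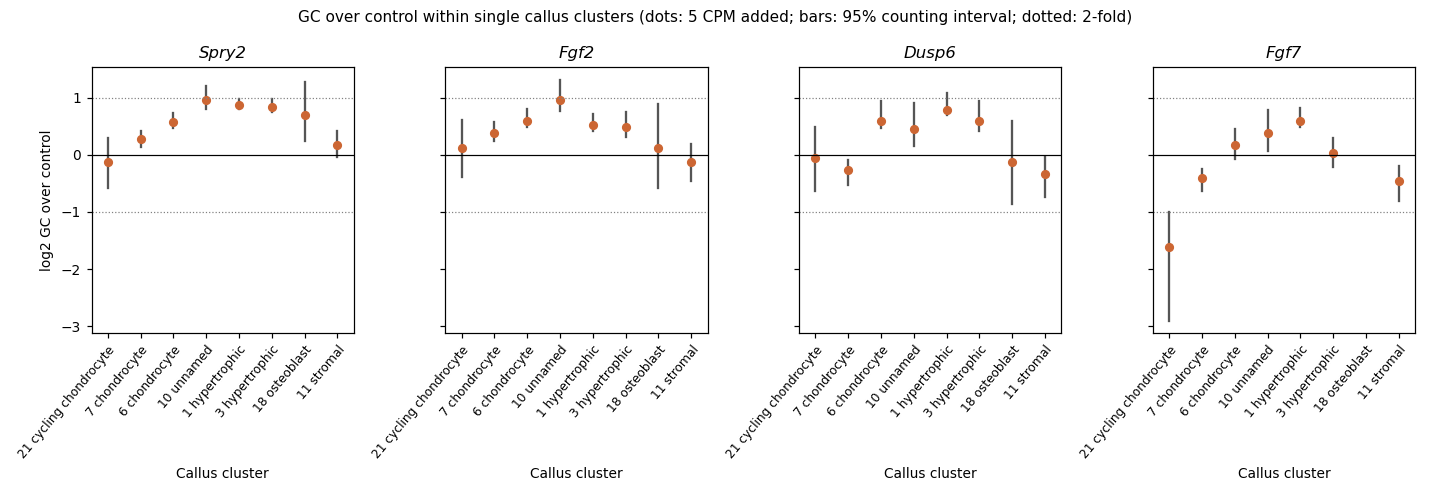
Log2 ratio of GC over control (y axis, dots, with 5 CPM added) of Spry2, Fgf2, Dusp6 and Fgf7 in the 8 skeletal clusters of the callus (x axis), with bars for the 95% counting interval of the ratio without that addition and dotted lines at 2-fold. Spry2 and Fgf2 lie above 0 in 7 of 8 clusters, whereas Dusp6 and Fgf7 lie on both sides of 0.

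For Spry2, Fgf2 and Dusp6, the 3 of the 9 genes with the highest ratios of GC over control in hypertrophic chondrocytes, the 250 bases before the start of each are shown, from RefSeq on GRCm38.p6 and on the strand of the gene. Capitals mark the one match found to any of 3 motifs searched on both strands: CCGGAA (ETS factors, which the cascade activates), TGANTCA (AP-1) and ACANNNTGT (a core of the glucocorticoid receptor element). The Fgf2 window is chr3:37348403-37348652 on the plus strand, the Dusp6 window is chr10:99262981-99263230 on the plus strand and the Spry2 window is chr14:105896820-105897069 on the minus strand.
Fgf2: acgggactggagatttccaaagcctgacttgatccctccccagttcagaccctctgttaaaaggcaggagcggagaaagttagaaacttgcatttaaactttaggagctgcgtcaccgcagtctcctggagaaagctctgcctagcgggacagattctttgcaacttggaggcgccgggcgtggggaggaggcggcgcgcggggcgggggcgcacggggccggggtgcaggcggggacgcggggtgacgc
Dusp6: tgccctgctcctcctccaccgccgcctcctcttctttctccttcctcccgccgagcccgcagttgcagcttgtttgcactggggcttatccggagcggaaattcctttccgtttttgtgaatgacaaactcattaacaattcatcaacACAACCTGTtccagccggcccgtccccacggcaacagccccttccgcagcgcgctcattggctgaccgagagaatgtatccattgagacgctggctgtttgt
Spry2: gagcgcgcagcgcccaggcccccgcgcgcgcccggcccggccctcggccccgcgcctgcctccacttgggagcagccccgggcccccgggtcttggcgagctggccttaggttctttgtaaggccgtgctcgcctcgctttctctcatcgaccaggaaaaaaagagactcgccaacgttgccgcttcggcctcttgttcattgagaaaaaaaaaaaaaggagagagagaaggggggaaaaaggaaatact

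The Dusp6 window held ACAACCTGT, whose first base lies 102 bases before the start, and the windows of Fgf2 and Spry2 held none of the 3 motifs. Of 9 windows of 8 of the genes (Fgfr3 has 2 and none was listed for Fgfr1), 1 held ACANNNTGT and 0 held either of the others. Among 32851 windows of this length in RefSeq, 5.84% held ACANNNTGT, 12.0% held CCGGAA and 6.75% held TGANTCA. A match is a description of the letters, not a site in use, and a window without one lacks only these letters in these 250 bases. On GRCm38, Fgf2 lies at chr3:37348346-37410108 on the plus strand and overlaps Fgf2os and Nudt6 on the minus strand, Dusp6 lies at chr10:99263231-99267489 on the plus strand, and Spry2 lies at chr14:105891947-105896819 on the minus strand. These positions are from GENCODE, by which the Fgf2 window lies inside the gene. That window comes before the RefSeq start of Fgf2 only, which lies further along the chromosome.

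**Figure D4:**
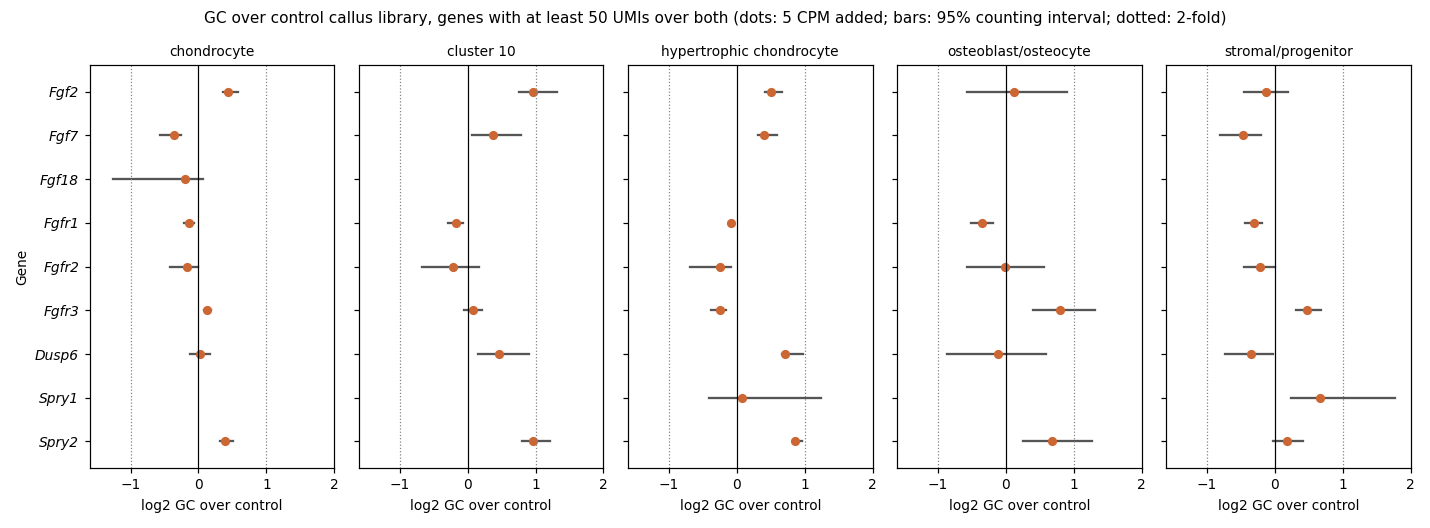
Log2 ratio of GC over control (x axis, dots, with 5 CPM added) of the genes that met the minimum counts (y axis) in the 5 skeletal groups of callus cells, with bars for the 95% counting interval of the ratio without that addition and dotted lines at 2-fold. In hypertrophic chondrocytes and cluster 10 the ratios of Spry2 are 0.86 and 0.96, while Fgfr1 lies at -0.08 and -0.17.

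In osteoblasts or osteocytes and in stromal cells the ratios of Fgfr1 and Fgfr3 had opposite signs. In osteoblasts or osteocytes Fgfr1 stood at 570 CPM in control and 448 CPM in GC (log2 ratio -0.35 [-0.51, -0.19]), and Fgfr3 at 54.9 and 98.9 CPM (0.79 [0.40, 1.31]). In stromal cells Fgfr1 stood at 385 and 310 CPM (-0.31 [-0.44, -0.19]), and Fgfr3 at 122 and 172 CPM (0.48 [0.30, 0.68]). In both classes Fgfr1 was lower and Fgfr3 higher in GC, beyond counting error, but these ratios moved with the choice of cells. Fgfr3 in osteoblasts or osteocytes was at 0.039 with doublets kept and -0.42 in cells of at least 1000 genes, and Fgfr1 in stromal cells was at 0.13 when unnamed clusters were put in their best class. Fgfr2 was not separated in osteoblasts or osteocytes (-0.01 [-0.58, 0.56]) and differed by -0.22 in stromal cells, where it was 0.42 with each library clustered alone.

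In stromal cells Fgf2 stood at 53.6 CPM in control and 48.7 CPM in GC (log2 ratio -0.12 [-0.46, 0.19]) and Spry2 at 98.9 and 113 CPM (0.18 [-0.04, 0.41]), and neither was separated by its interval. Fgf7 was at 69.7 CPM in control and 49.1 CPM in GC (-0.47 [-0.81, -0.20]). Spry1 was at 7.08 and 14.1 CPM, on 25 and 41 UMIs (0.66 [0.24, 1.77]). Neither class had a gene past 2-fold, of 8 tested in stromal cells and 6 in osteoblasts or osteocytes. Among all genes tested, 0.372% were higher and 0.989% lower in stromal cells, and 1.43% were higher and 0.808% lower in osteoblasts or osteocytes. The 14 chondrocyte markers summed to 12417 CPM in control and 15868 CPM in GC in osteoblasts or osteocytes, and to 30174 and 30375 CPM in stromal cells. The part of these markers in the ratios was not tested.

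The 3 callus pairs past 2-fold were outside these classes. Fgfr1 in osteoclasts, the cells that resorb bone, stood at 37.7 CPM (83 UMIs in 110 cells) in control and 90.3 CPM (186 UMIs in 123 cells) in GC, a log2 ratio of 1.16 [0.88, 1.65], which was short of 2-fold with doublets kept (0.92) or 20 CPM added (0.93). In this class 0.698% of all genes tested were higher by 2-fold. The chondrocyte markers in the same osteoclasts summed to 2991 CPM in control and 849 CPM in GC, and the stromal markers to 158 and 65.5 CPM, and their part in the ratio was not tested.

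Spry1 in endothelial cells stood at 172 CPM (76 UMIs in 47 cells) in control and 67.4 CPM (28 UMIs in 70 cells) in GC, a log2 ratio of -1.29 [-2.03, -0.71], where 2.72% of all genes tested in the class were lower by 2-fold. Dusp6 in the same cells went the other way, from 299 CPM in control to 448 CPM in GC (0.57 [0.25, 0.92]). The 10 pericyte markers, all detected in both, summed to 1715 CPM in control endothelial cells and 770 CPM in GC ones, the direction of Spry1, and their part in its ratio was not tested. Thinned to 1000 UMIs, the shares of endothelial cells with a Spry1 UMI were 10.6% and 10.3%. They come from at most 47 control and 70 GC cells, too few to decide whether the share differed. Over 15 alternative settings the log2 ratio of Spry1 ran from -1.42 to -1.07.

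Dusp6 in monocytes stood at 69.6 CPM (157 UMIs in 493 cells) in control and 13.9 CPM (26 UMIs in 470 cells) in GC, a log2 ratio of -1.98 [-2.98, -1.72], where 2.25% of all genes tested were lower by 2-fold. In 3 other blood classes of the callus the Dusp6 ratios were also below 0, by less than 2-fold. Neutrophils stood at 204 CPM in control and 127 CPM in GC (-0.66 [-0.91, -0.46], but 0.21 in cells of at least 1000 genes), macrophages at 65.7 and 42.2 CPM (-0.58 [-1.30, -0.00]) and T or NK cells at 29.5 and 16.3 CPM (-0.69 [-1.61, -0.11]). In T or NK cells the ratio was -0.056 once the B cell level was taken off, and callus B cells themselves were at 23.0 CPM (31 UMIs) in control and 10.3 CPM (7 UMIs) in GC. Control callus neutrophils were mostly in cluster 2 (1101 of 1708 cells) and those of GC mostly in cluster 0 (1140 of 1393 cells). The callus macrophages joined 2 clusters. Cluster 17 (100 control and 106 GC cells) was led by Cd36 and Apoc2, with 0 of the macrophage markers among its leading genes. Cluster 19 (82 and 85 cells) was led by C1qb and C1qa.

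Trabecular bone had little of the ligands and receptors outside its stromal cells. In its 5647 neutrophils Fgfr1 had 2 UMIs, Fgf2 had 1, Fgfr2 had 1 and Fgfr3, Fgf7 and Fgf18 had 0. In callus neutrophils Fgfr1 was at 33.6 CPM in control and 21.6 CPM in GC and Fgfr3 at 15.8 and 5.79 CPM, against 18.5 and 5.86 CPM of Fgfr3 in the B cells of the same libraries. Fgfr1 was highest in the trabecular stromal cells, at 311 CPM in 13 control cells (37 UMIs) and 393 CPM in 34 GC cells (97 UMIs). Plasmacytoid dendritic cells (66.6 CPM in control) and hematopoietic progenitors (18.5 CPM in control and 24.8 CPM in GC) came next.

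The stromal cells of GC could be set side by side between the tissues, although tissue and library cannot be told apart. Fgfr3 stood at 172 CPM (502 UMIs) in the callus and 4.05 CPM (1 UMI) in trabecular bone, and the counting interval of that ratio ran from 7.59-fold to 1682-fold. Spry1 stood at 14.1 CPM in the callus and 93.3 CPM (23 UMIs) in trabecular bone, a log2 ratio of -2.37. Fgfr1 (310 and 393 CPM), Fgfr2 (93.7 and 81.1 CPM) and Fgf2 (48.7 and 40.5 CPM) were closer. The log2 ratio of Fgfr3, 4.29 on the scale with 5 CPM added, was 2.52 with each library clustered alone, and its trabecular value rests on that 1 UMI in 34 cells. Stromal cells of GC callus also carried Col2a1, a cartilage marker, at 12143 CPM, and its part in the ratio was not tested.

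Dusp6 and Spry2 could be followed in blood cells of both tissues. Neutrophils had Dusp6 at 204 CPM in control callus against 46.6 CPM in control trabecular bone (log2 ratio 2.02). In GC it stood at 127 against 36.8 CPM (1.66), so callus neutrophils were higher under both treatments. Their median depth was 1305 UMIs in control callus and 5988 in control trabecular bone, and 1177 and 4895 in GC. Ratios in cells thinned to equal depth are in the last section. The clusters that made up this class were not matched between the tissues, and their part in the ratios was not tested. Within trabecular bone the ratio of GC over control was -0.30 [-0.49, -0.19] for Dusp6 in neutrophils, where control cells were mostly in clusters 0, 3 and 7 and GC cells mostly in clusters 1, 2 and 4. The 1 trabecular pair past 2-fold was Spry2 in T or NK cells, at 139 CPM (46 UMIs in 49 cells) in control and 38.9 CPM (51 UMIs in 163 cells) in GC, a log2 ratio of -1.71 [-2.44, -1.23]. In that class 2.9% of all genes tested were lower by 2-fold. Neutrophil markers in these T or NK cells summed to 44584 CPM in control and 5864 CPM in GC, and their part in the ratio was not tested.

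**Figure D5:**
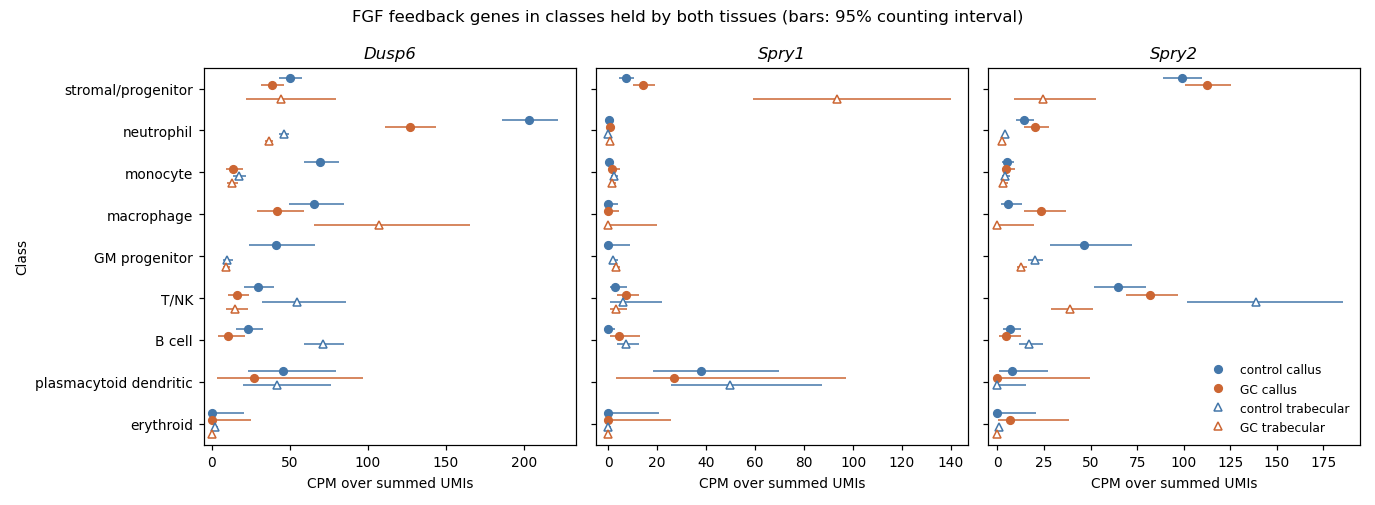
CPM of Dusp6, Spry1 and Spry2 (x axes) in the cell classes with at least 15 cells in a library of both tissues (y axis), with points for the 4 libraries and bars for the 95% counting interval. Callus neutrophils lie above trabecular neutrophils for Dusp6 (204 against 46.6 CPM in control), and Spry2 in trabecular T or NK cells is 139 CPM in control and 38.9 CPM in GC.

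The rest of the pathway was described from a list of 65 further genes. In hypertrophic chondrocytes 38 of the 65 met the minimum and 0 were past 2-fold, and their median log2 ratio was -0.04, with 16 above 0 and 22 below. In chondrocytes 39 met it, 0 were higher and 1 was lower, and in stromal cells 35 met it, 0 were higher and 1 was lower. Cluster 10 and osteoblasts or osteocytes had 33 and 30, and 0 past 2-fold.

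Among other ligands, Fgf1 was the one with more than 50 CPM in hypertrophic chondrocytes, at 116 CPM in control and 130 CPM in GC (log2 ratio 0.15 [0.08, 0.24]). Among other feedback inhibitors in these cells, Spry4, a further Sprouty gene, was at 40.1 and 50.6 CPM (0.30 [0.20, 0.47]) and Spred2 at 35.9 and 45.0 CPM (0.29 [0.19, 0.47]). Dusp5, a nuclear phosphatase of MAP kinases, was at 708 and 597 CPM (-0.24 [-0.28, -0.21]), Spred1 at 181 and 163 CPM (-0.15 [-0.22, -0.08]) and Dusp7 at 26.4 and 19.0 CPM (-0.38 [-0.66, -0.28]). These inhibitors were listed together with genes that respond to the cascade, such as Etv4 and Egr1. That joint list was divided in these cells, with 5 of 10 tested genes above 0 and 5 below, between -0.38 and 0.51. Its direction was not that of Spry2 and Dusp6 as a whole.

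The 1 further gene past 2-fold in chondrocytes was Dusp5, at 301 CPM (11334 UMIs) in control and 144 CPM (1736 UMIs) in GC, a log2 ratio of -1.04 [-1.13, -0.99]. In stromal cells it was Dusp4, at 12.8 CPM (45 UMIs) and 2.40 CPM (7 UMIs), a log2 ratio of -1.26. Fgfrl1, a receptor that lacks the kinase domain, was at 161 CPM in control and 179 CPM in GC chondrocytes.

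The genes whose levels followed each of the 9 most closely were found over 34 points, each a class in 1 callus library, among 12345 genes. The values are Pearson correlations of log levels, given as a description, since the points share libraries and depth. Fgfr3 was followed most closely by Peg3 (0.96) and Col11a1 (0.95), Fgfr1 by Maged1 (0.92), and Fgfr2 by Naaladl2 (0.95) and Ogn (0.94). The ligands Fgf2 and Fgf7 were followed by Plod2 (0.96) and Zim1 (0.96), and Fgf18 by Mpi (0.83). Of the feedback genes, Dusp6 was followed by Ets2 (0.83), Spry1 by Sema6d (0.83) and Spry2 by Crim1 (0.89), so the receptors and 2 of the ligands had closer neighbors than Fgf18, Dusp6 and Spry1.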

How the data were processed

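Single-cell RNA-seq libraries were made by the study with a 10x Genomics kit from 1 callus and 1 trabecular sample per treatment. The deposited values are UMI counts per gene and barcode, made by the authors with Cell Ranger and not normalized. Per the labels the version was 5.0.1 and the build mm10, and Seurat 3.2.0 is also listed in the submitters' processing notes, with no role given, while the file headers name another Cell Ranger release. The 3 full matrices list 6794880 barcodes each and that of GC callus lists 7762, all of at least 500 UMIs. The libraries held 41239842 to 95852254 UMIs.

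Barcodes counted as cells when they passed 10% of the UMIs at percentile 99 of the top 3000 barcodes or, from 500 UMIs, by a Monte Carlo test against the barcodes ranked 45001 to 90000 (10000 simulations, adjusted p of 0.01). Cells with under 200 genes or over 10% mitochondrial UMIs were removed, and doublets, scored against simulated pairs, were removed at 0.8% per 1000 cells, which took 404, 428, 123 and 183 cells. Both libraries of each tissue went into a single clustering (2000 variable genes, 30 components, 15 neighbors, Leiden resolution 1) without the 74 genes of the FGF lists. Clusters were named from 201 markers of 22 classes (at least 3 markers, 2-fold, in 10% of cells), by a rule settled after the clusters had been seen.

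CPM has an exact Poisson interval, a share of cells a Clopper-Pearson interval and a ratio an exact conditional interval, at 95%, and UMIs make these intervals cover counting error alone. Ratios needed 50 UMIs over both libraries and 15 cells in each, and add 5 CPM. Recovery of ratios was tested on simulated data. The 9 genes and all lists were chosen with earlier results of these data known. Named genes are the 9, those of the FGF lists, and the genes most correlated with each of the 9. Genes given as leading a cluster were its highest by fold. Members of the FGF lists beyond the 9 were picked for the text after their values were seen, as were the 3 promoters. Positions came from GENCODE on GRCm38. Other settings tried numbered 18, and 2 more were added after the data were seen. Matrices were handled in Python 3.11.15 with pandas 2.3.3 and numpy 2.4.6, intervals were computed with scipy 1.17.1, components with scikit-learn 1.9.0, clusters with leidenalg 0.10.2 and igraph 0.11.9, and figures with matplotlib 3.10.9.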

Additional observations from a re-analysis of the deposited data

Results flagged for a closer look

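Spry2 ratios had opposite signs in the 2 tissues in both blood classes where it could be compared. In T or NK cells its log2 ratio of GC over control was 0.32 in the callus and -1.71 in trabecular bone, and in neutrophils it was 0.38 in the callus and -0.23 in trabecular bone. The counting intervals of both callus ratios include 0 ([-0.06, 0.74] in T or NK cells and [-0.20, 1.20] in neutrophils). In callus T or NK cells the ratio was -0.16 with doublets kept and -0.61 with each library clustered alone, and the signs were then the same in both tissues. Each value rests on 1 library per group, and the difference between the tissues was not tested.

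The mixed clusters of GC callus, which belong to no class, carried Fgf2 at 99.4 CPM [91.2, 108] and Spry2 at 399 CPM [383, 416]. Both were above the highest level of any class of control callus, which was 59.9 CPM for Fgf2 in chondrocytes and 124 CPM for Spry2 in hypertrophic chondrocytes. Spry2 lay between 177 and 485 CPM over the 8 mixed clusters. Fgfr1 (473 CPM) and Fgfr3 (121 CPM) in these clusters were below their highest control classes. The cells had a median of 2952 UMIs.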

How the results depend on the processing

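No paired analysis was possible because each group is 1 library, and for the same reason no library could be left out. Over the main results, 250 values counted as kept under the 18 settings set out for this work and 2 added after the data were seen, and 93 moved. A ratio or a share moved when it left its counting interval. A ratio whose interval spans 0 could therefore change sign and still count as kept. Counts of pairs or of genes, which have no such interval, moved when they changed by more than a set factor. Of the other values of single genes, some of them in the same classes, 744 kept and 117 moved, and these are not listed in full. Over the alternatives, Fgfr1 ran from -0.18 to 0.997 and Dusp6 from -0.31 to 0.69 in chondrocytes. Fgfr3 ran from -1.02 to -0.0012 in hypertrophic chondrocytes, and Spry2 from 0.86 to 1.79 in cluster 10. In hypertrophic chondrocytes the log2 ratios of Spry2 (0.70 to 0.93), Dusp6 (0.52 to 2.42) and Fgf2 (0.35 to 0.96) stayed above 0 under each of 16 alternatives run for them, and that of Fgfr1 (-0.20 to 0.15) changed sign under 3. The ratios of Fgfr3 in chondrocytes (-0.13 to 0.26) and of Fgfr3 in osteoblasts or osteocytes (-0.42 to 1.24) were not stable in sign. Fgf2 was highest in chondrocytes in place of cluster 10 when mitochondrial, ribosomal protein and hemoglobin genes were left out of CPM. It was also highest in chondrocytes wherever cells were clustered anew. Unnamed clusters were left out of the ranking in those settings, so they cannot decide between cluster 10 and chondrocytes. Among classes with at least 50 UMIs, the highest callus class of Fgf7 became chondrocytes at Leiden resolution 0.5, and that of Fgf18 became stromal cells at resolution 2, in cells of at least 1000 genes and with doublets kept. The values of the main results that moved follow, and their causes were not tested, except that shares move with the number of UMIs kept. That number also sets which cells are counted.

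With at least 1000 genes per cell, the log2 ratios were -0.052 (Fgfr3) in chondrocytes and -0.19 (Fgfr1), 0.35 (Fgf2), 1.01 (Dusp6) and 0.70 (Spry2) in hypertrophic chondrocytes. Here 2 callus pairs were higher in GC by 2-fold. With doublets kept, the log2 ratios were 0.036 (Fgfr3) in chondrocytes and -0.011 (Fgfr1), 0.39 (Fgf2), 0.59 (Dusp6) and 0.81 (Spry2) in hypertrophic chondrocytes. Here 0 callus pairs were higher in GC by 2-fold. At Leiden resolution 0.5, the log2 ratios were 0.26 (Fgfr3) in chondrocytes and 0.12 (Fgfr1) in hypertrophic chondrocytes. At Leiden resolution 2, the log2 ratios were -0.039 (Fgfr3) in chondrocytes and 0.015 (Fgfr1) in hypertrophic chondrocytes. With each library clustered alone, the log2 ratios were -0.13 (Fgfr3) in chondrocytes, 0.15 (Fgfr1) in hypertrophic chondrocytes and 0.42 (Fgfr2) and -1.05 (Fgf7) in stromal cells. Here 2 callus pairs were higher in GC by 2-fold, 4 callus pairs were lower in GC by 2-fold and 2 trabecular pairs were lower in GC by 2-fold. With the mean over cells of CPM, the log2 ratios were -0.011 (Fgfr3) in chondrocytes and -0.037 (Fgfr1), 1.06 (Dusp6) and 0.77 (Spry2) in hypertrophic chondrocytes. Here 3 callus pairs were higher in GC by 2-fold. With cells thinned to 1000 UMIs, the log2 ratios were 0.0049 (Fgfr3) in chondrocytes and -0.20 (Fgfr1), 0.96 (Fgf2), 0.98 (Dusp6) and 0.82 (Spry2) in hypertrophic chondrocytes. Here 0 callus pairs were lower in GC by 2-fold and 0 trabecular pairs were lower in GC by 2-fold. The pairs lower as reported no longer had 50 UMIs, so this count does not show whether their differences were kept. 3 genes kept their highest callus class, Fgf2 and Fgf7 were highest in chondrocytes and Dusp6 in neutrophils, and the other 3 had no class with 50 UMIs left. In the settings that kept the lower pairs, ratios were -2.58 to -1.40 for Dusp6 in monocytes and -1.42 to -1.07 for Spry1 in endothelial cells. For Spry2 in trabecular T or NK cells they were -2.10 to -1.42. With the B cell level of the same library taken off, the log2 ratios were 0.20 (Fgfr3) in chondrocytes, 2.42 (Dusp6) in hypertrophic chondrocytes and 1.98 (Fgfr1) in osteoclasts. Here 5 callus pairs were higher in GC by 2-fold. With clusters of a class weighted equally, the log2 ratios were 0.043 (Fgfr3) in chondrocytes. With 20 CPM added, the log2 ratios were 0.39 (Fgf2), 0.52 (Dusp6) and 0.79 (Spry2) in hypertrophic chondrocytes and -1.40 (Dusp6) in monocytes. Here 0 callus pairs were higher in GC by 2-fold. With every barcode of at least 1000 UMIs, the log2 ratios were 0.25 (Fgfr2) and -0.82 (Fgf7) in stromal cells. Here 2 callus pairs were higher in GC by 2-fold. With at most 5% mitochondrial UMIs, the log2 ratios were 0.093 (Fgfr2) and -1.0 (Fgf7) in stromal cells. Here 2 callus pairs were higher in GC by 2-fold. With unnamed callus clusters put in their best class, the log2 ratios were -0.94 (Fgfr2) in stromal cells. Here 3 callus pairs were higher in GC by 2-fold. With 1 CPM added, 3 callus pairs were higher in GC by 2-fold. With at least 20 UMIs over both libraries, 4 callus pairs were higher in GC by 2-fold, 4 callus pairs were lower in GC by 2-fold and 2 trabecular pairs were lower in GC by 2-fold. With at least 200 UMIs over both libraries, 0 callus pairs were lower in GC by 2-fold and 0 trabecular pairs were lower in GC by 2-fold. The pairs lower as reported had fewer UMIs than that and were not counted. Thinned to 500 UMIs, shares were 28.2% for Fgfr1 in control hypertrophic chondrocytes, 28.6% for Fgfr1 in GC hypertrophic chondrocytes, 14.9% for Fgfr3 in control chondrocytes, 13.4% for Fgfr3 in GC chondrocytes, 6.48% for Spry2 in control hypertrophic chondrocytes, 11.3% for Spry2 in GC hypertrophic chondrocytes, 0.731% for Dusp6 in control hypertrophic chondrocytes and 2.53% for Dusp6 in GC hypertrophic chondrocytes. Thinned to 2000 UMIs, shares were 68% for Fgfr1 in control hypertrophic chondrocytes, 71% for Fgfr1 in GC hypertrophic chondrocytes, 40.8% for Fgfr3 in control chondrocytes, 41.8% for Fgfr3 in GC chondrocytes, 23.1% for Spry2 in control hypertrophic chondrocytes, 35.1% for Spry2 in GC hypertrophic chondrocytes, 4.65% for Dusp6 in control hypertrophic chondrocytes and 8.48% for Dusp6 in GC hypertrophic chondrocytes. Ratios of callus over trabecular bone were 1.48 for Dusp6 in control neutrophils and 2.01 for Dusp6 in GC neutrophils with at least 1000 genes per cell. They were 1.95 for Dusp6 in control neutrophils at Leiden resolution 2. They were 2.52 for Fgfr3 in GC stromal cells and -1.29 for Spry1 in GC stromal cells with each library clustered alone. They were 1.66 for Dusp6 in control neutrophils and 1.16 for Dusp6 in GC neutrophils with the mean over cells of CPM. They were 1.48 for Dusp6 in control neutrophils and 1.27 for Dusp6 in GC neutrophils with cells thinned to 1000 UMIs. They were 1.85 for Dusp6 in control neutrophils and 1.54 for Dusp6 in GC neutrophils with the B cell level taken off. They were 1.75 for Dusp6 in control neutrophils, 1.37 for Dusp6 in GC neutrophils and -1.73 for Spry1 in GC stromal cells with 20 CPM added. They were 1.93 for Dusp6 in control neutrophils and -1.26 for Spry1 in GC stromal cells with every barcode of at least 1000 UMIs. They were -1.59 for Spry1 in GC stromal cells with at most 5% mitochondrial UMIs.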
